A study of Rattus norvegicus with 8 samples.

Results

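Myh3 and Myh8, the embryonic and neonatal myosin heavy chains, were described in the 2 layers, orbital and global, of the eye muscles of adult rats. Members were the probe sets whose platform annotation gives exactly 1 gene symbol, equal to Myh3 or Myh8. That rule found 2 of the 15923 probe sets of the array, 1 for each gene. The global layer faces the eyeball and the orbital layer faces the bony orbit. The study took layer tissue from sections with a laser, and amplified RNA of 8 such captures, 4 per layer, was put on 1 Affymetrix array each. All 8 came from adult rats, and the labels name no strain, treatment, sex or allele. The labels link no capture to an animal and state no animal count. Where captures come from the same animal, p-values computed over captures are too small; in any case they reflect no more than the variation among these 8. Orbital captures 3 and 4 carry titles that differ only by a suffix (R3OL1 with and without it), and the labels do not say whether both came from the same tissue. The SD of their log2 differences over 9520 probe sets was 0.46, beside 0.43 to 0.45 for the other 5 orbital pairs, and both were counted.

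Myosin heavy chain is the motor protein of the thick filament. It is made from a family of genes whose products set how fast a fibre contracts. In limb muscle Myh3 is used by fibres of the embryo and Myh8 by fibres around birth, and both give way to adult fast and slow chains except in regenerating fibres and muscle spindles. Extraocular muscle is known for keeping both into adult life, beside Myh13, a chain largely restricted to it and to laryngeal muscle. Along fibres of the orbital layer the embryonic chain is known to lie towards the fibre ends.

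In RefSeq's rat annotation (GRCr8) both genes lie on chromosome 10 in a row of 6 sarcomeric myosin genes, in the order Myh3, Myh2, Myh1, Myh4, Myh8 and Myh13, so that Myh3 is at an end and 3 adult fast genes stand between it and Myh8. Since both transcripts were higher in the orbital layer, the 250 bases before each annotated gene start are given here 5′ to 3′ on the plus strand (Myh3 at chr10:52268935-52269184, Myh8 at chr10:52462259-52462508). Capitals mark every match, on either strand, to any of 6 motifs. These were the E-box CANNTG, which myogenic factors bind, and the MCAT element, spelled CATTCC. Core promoter motifs were searched as TATAAA and, separately, with the spelling TATATA, which can overlap with it or with itself. The last were the MEF2 and CArG consensus sequences, bound by muscle regulators.
Myh3: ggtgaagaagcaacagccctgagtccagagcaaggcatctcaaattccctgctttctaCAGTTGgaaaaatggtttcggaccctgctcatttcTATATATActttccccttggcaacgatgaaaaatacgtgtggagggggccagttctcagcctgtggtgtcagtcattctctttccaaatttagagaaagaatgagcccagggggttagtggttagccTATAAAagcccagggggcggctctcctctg
Myh8: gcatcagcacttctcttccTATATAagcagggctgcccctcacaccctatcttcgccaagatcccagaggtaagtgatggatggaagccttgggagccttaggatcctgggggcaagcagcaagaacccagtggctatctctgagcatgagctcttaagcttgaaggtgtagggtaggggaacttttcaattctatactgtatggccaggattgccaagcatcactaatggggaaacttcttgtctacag
TATATA was the only motif of these 6 found in both windows, with 2 overlapping matches before Myh3 (157 to 150 bases before the start) and 1 before Myh8 (231 to 226 bases before the start). It occurs in 5.45% of the 33469 windows of this length. The Myh3 window also held 1 E-box, CAGTTG, 192 to 187 bases before the start, and TATAAA 30 to 25 bases before it, motifs found in 65.5% and 12.9% of all windows. MCAT, MEF2 and CArG matches (12.1%, 2.96% and 1.5% of windows) were in neither. A match is a description of these letters only. The annotated start of Myh8 may lie downstream of another first exon, in which case its window is not the promoter and the distances given for it are not those to the true start.

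Each array gave an intensity for every probe set, on a linear scale that the authors had set to a common trimmed mean. Array medians lay between 58.8 and 66.3. All 8 markers of skeletal muscle on the list were on the array, and their summed intensity was 45180 to 67548.2 in the global and 41635.6 to 62156.7 in the orbital captures. The sums hide differences in both directions. In the orbital layer Mb was higher (log2 difference 0.82), while Atp2a1 (-0.82) and Ryr1 (-0.77) were lower (limma, adjusted p = 0.0029, 0.0306 and 0.0229). These made up 37.5% of the 8, beside 7.68% of all genes tested. Myh13 was between 9693.1 and 16421.3 in every capture. In all, 7.41% of the 9520 probe sets bright enough to test differed between the layers (limma, adjusted p under 0.05), 3.91% being higher and 3.5% lower in the orbital layer.

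Myh3 transcript was abundant in every orbital capture and varied widely among the global captures. Its intensity was 12270, 9371.3, 13525.6 and 13787.5 in orbital captures 1 to 4, and 1378.5, 6630.4, 3344.2 and 213.5 in global captures 1 to 4. The layers did not overlap: the lowest orbital capture was 1.41-fold above the highest global one, while the highest orbital capture was 64.6-fold above global capture 4. The mean of the orbital captures was 12239 ± 2023 (SD, n = 4) and that of the global captures 2892 ± 2807, so that the SD of the global captures was nearly as large as their mean. The log2 difference of the orbital over the global layer was 2.92 ± 0.74 (SE), with a 95% interval of 1.32 to 4.51 and an adjusted p of 0.0290 in limma. Leaving out global capture 4 reduced the difference to 1.95 with an adjusted p of 0.0118. The call was lost on leaving out global capture 1 or any 1 orbital capture (adjusted p 0.0511 to 0.0774), with robust eBayes (0.179), and with orbital captures 3 and 4 averaged into 1 (2.86, adjusted p = 0.0717).

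Myh8 transcript was also higher in every orbital capture than in any global one, and it varied less among the global captures than Myh3 did. Its intensity was 9789.8, 7120, 8190.9 and 11183.2 in orbital captures 1 to 4, and 2333.1, 4301.8, 3432.5 and 2427.1 in global captures 1 to 4. The gap was 1.66-fold between the lowest orbital and the highest global capture, and 4.79-fold between the extremes. The means were 9071 ± 1785 (SD, n = 4) and 3124 ± 930. The log2 difference was 1.56 ± 0.21 (SE), with a 95% interval of 1.12 to 2.01 and an adjusted p of 0.000506 in limma. The call held on leaving out any 1 capture (adjusted p 0.000231 to 0.00281). Over the 16 pairs of an orbital with a global capture, the median fold was 5.46 for Myh3 and 2.99 for Myh8, and all 16 were above 1 for each. In such samples of many cells, fewer fibres that express a gene and less transcript per fibre cannot be told apart. All 4 captures of the orbital layer lay above all 4 of the global layer for 7.31% of the probe sets tested.

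**Figure D1:**
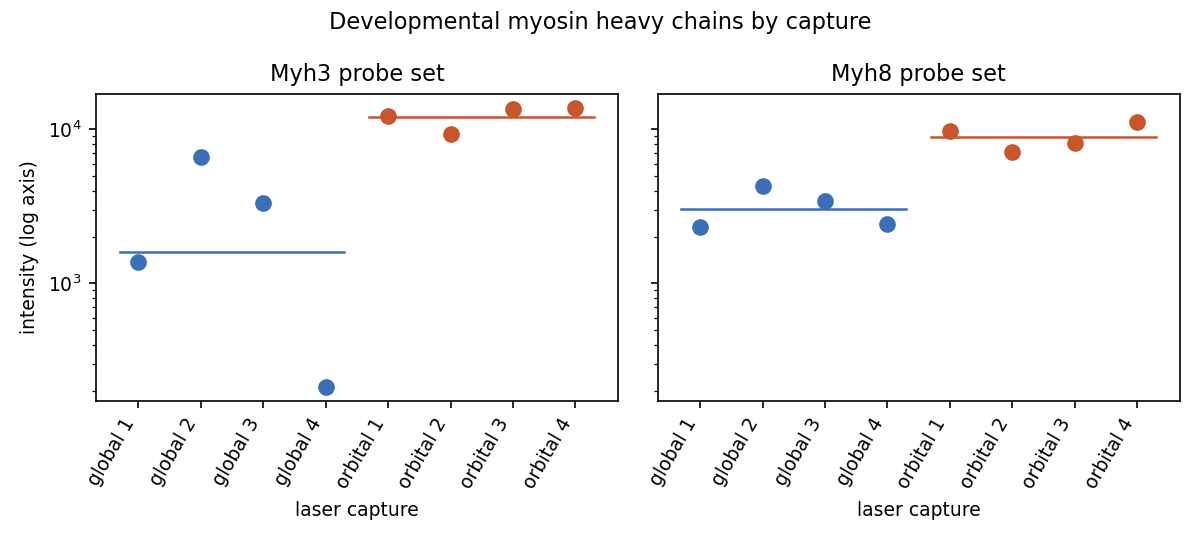
Intensity (log axis) of the Myh3 and the Myh8 probe set in each of the 8 laser captures, global in blue and orbital in orange, 1 point per capture; lines are geometric means of 4 captures. Myh3 runs from 213.5 to 6630.4 across the global captures and from 9371.3 to 13787.5 across the orbital ones, while Myh8 stays between 2333.1 and 4301.8 and between 7120 and 11183.2.

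Within each array both probe sets stood near the top, which does not depend on the authors' scaling but does depend on how strongly a probe set binds its target. Among 15866 probe sets that are not controls, Myh3 ranked 3, 6, 3 and 7 from the top in orbital captures 1 to 4. In global captures 1 to 4 it ranked 416, 37, 133 and 3327. Myh8 ranked 12, 22, 24 and 15 in the orbital and 208, 88, 127 and 188 in the global captures. So Myh3 was at percentile 97.4 or above in 7 of 8 captures and at percentile 79.0 in global capture 4. As percentiles the difference between layers was 6.14 points for Myh3 and 0.848 for Myh8, each with an exact permutation p of 0.0286 (two-sided, also after adjustment over both), the smallest that 4 against 4 allows. Even in global capture 4, Myh3 was 5.14-fold above the highest of the bacterial control probe sets of that array.

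The spread of Myh3 among the global captures was among the largest on the array. The SD of its log2 intensity was 2.14 over the global and 0.26 over the orbital captures, and that of Myh8 was 0.42 and 0.29. Of the 603 tested probe sets with a mean intensity of at least 1000, Myh3 had the largest global SD (rank 1) and rank 181 in the orbital layer, where the medians of these probe sets were 0.18 and 0.20. Myh8 ranked 29 and 129. Among all 9520 tested, Myh3 was at rank 4 for the global SD, after Sag, a photoreceptor arrestin (3.45), Ttr, the thyroxine carrier transthyretin (2.48), and Tnnt2, a troponin T of heart and embryonic muscle (2.16). These ranks describe 4 captures and carry no test.

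**Figure D2:**
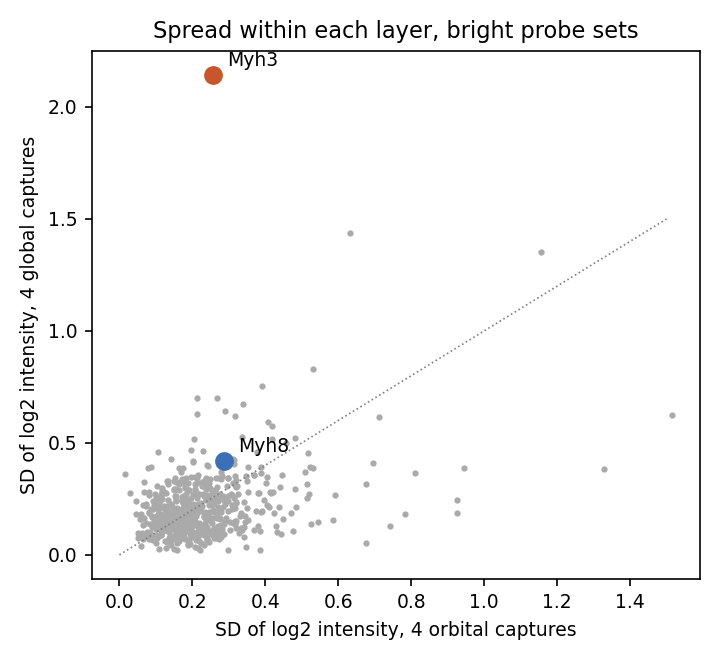
SD of log2 intensity over the 4 orbital captures (horizontal) against that over the 4 global captures (vertical) for the 603 tested probe sets with a mean intensity of at least 1000, 1 point each; the dotted line marks equal SD. Myh3 sits alone at 2.14 on the global axis and 0.26 on the orbital axis, and Myh8 lies at 0.42 and 0.29.

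Whether Myh3 and Myh8 differed between layers by unequal amounts was examined as log2 of Myh3 minus log2 of Myh8 on the same array. The difference was 0.33, 0.40, 0.72 and 0.30 in orbital captures 1 to 4. In global captures 1 to 4 it was -0.76, 0.62, -0.04 and -3.50. Global capture 2 therefore lay inside the orbital range and global capture 4 far below it. The layer means differed by 1.36 (0.44 ± 0.20 orbital, -0.92 ± 1.81 global, SD, n = 4; exact permutation p = 0.114, two-sided), a difference within the spread of the global captures. It was 0.49 without global capture 4.

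Titles of the captures begin with R2 or R3, whose meaning the labels do not give, and each prefix holds 2 captures per layer. The log2 difference of Myh3 was 1.83 within R2 and 4.01 within R3, and that of Myh8 was 1.40 and 1.73. The interaction of layer with prefix was 2.18 ± 1.43 (SE) for Myh3 (limma, unadjusted p = 0.156, adjusted p = 0.99987) and 0.33 ± 0.43 for Myh8 (unadjusted p = 0.461). It passed for 0 of 9520 probe sets, or 0% (limma), and 290 had an unadjusted p under 0.05. With only 2 captures per layer, Myh3 did not pass within either prefix (adjusted p 0.228 in R2 and 0.0516 in R3), and Myh8 passed within R3 alone (0.0765 in R2).

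Transcripts of other cell types also varied among the captures. The 8 photoreceptor genes on the array summed to 253.7 and 482 in global captures 2 and 3, where Myh3 was highest, and to 2040.9 and 1512.2 in global captures 1 and 4, where it was lowest. In orbital captures 1 to 4 the same sum was 1017.3, 3461, 928 and 2036.3. Myh3 was lowest in orbital capture 2, but highest in orbital capture 4, whose sum was above those of captures 1 and 3. The recoverin gene Rcvrn was under the highest bacterial control in 7 of 8 captures and Sag in 2. Of 7 photoreceptor genes tested, 0 passed in either direction (limma; 1 higher and 0 lower at an unadjusted p under 0.05). Yet all 7 had a positive difference, with a median of 1.16 beside 0.02 over all genes tested. Their errors were large, as for Sag (2.62 ± 1.24, SE), so the lack of calls does not show equal signal in both layers. When only global captures 2 and 3 were set against the orbital layer, the log2 difference of Myh3 was 1.36 (limma, adjusted p = 0.0222) and that of Myh8 1.22 (adjusted p = 0.0139). Without the 2 captures of most photoreceptor signal in each layer they were 1.45 (adjusted p = 0.0217) and 1.22 (adjusted p = 0.0166). Both alternatives were chosen after seeing the data. Both keep the 2 global captures in which Myh3 and Myh8 were highest. In the first, the smaller differences follow from that choice, and the p-values of neither are an independent test.

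Nerve and Schwann cell transcripts were most abundant in global capture 4 among the global captures, with a sum of 4990.2 over 8 genes against 1512.5 to 2119.7 in the other 3. The orbital captures summed to 2672 to 5387.4, and 1 of 6 genes tested was higher there and 0 lower. Sox10, a regulator of Schwann cells, was 67.6 in global capture 4 and under the highest bacterial control in the other 7 captures. Sums for fibroblast genes (10 on the array, 0 of 9 called) were 6019.5 to 9577.2 in the global and 7123.1 to 10670.3 in the orbital layer. Smooth muscle genes (9 on the array, 1 of 7 lower, 0 higher) summed to 1357.8 to 1462.2 and 1036.8 to 1222.5. Sums were 1349 to 1593.8 and 1355.3 to 1984.7 for endothelial genes (8 on the array, 1 of 8 higher), and 597.2 to 1349.2 and 575.7 to 972.3 for macrophage and blood genes (6 on the array, 0 of 6 called). They were 497.3 to 826 and 238.1 to 511.9 for adipocyte genes (6 on the array, 0 of 3 called), of which leptin was under the highest bacterial control in all 8 captures. At an unadjusted p under 0.05 (limma), 3 of 3 adipocyte genes fell in the orbital captures, with a median log2 difference of -0.997. Fibroblast genes gave 4 higher and 1 lower, and endothelial genes 3 and 0. Smooth muscle genes gave 0 and 2, nerve and Schwann cell genes 1 and 0, macrophage and blood genes 0 and 0. Of all genes tested, 4.09% were called higher and 3.59% lower. Few or no calls in such short lists do not show equal signal in both layers. No marker was at 0 in any capture. The 3′ to 5′ ratio of Gapdh was 5.81 to 12.9 in the orbital captures and 5.35, 5.64, 5.70 and 6.47 in global captures 1 to 4. Its global order was not the reverse of that of Myh3. The ratio of beta actin was 9.61, 7.69, 7.93 and 10.7 in global captures 1 to 4, the reverse of the order of Myh3. It was 7.87, 9.16, 8.32 and 8.37 in orbital captures 1 to 4, which was not the reverse of that order. The highest bacterial control was 41.5 in global capture 4, 17.7 to 22 in the other global captures and 17.7 to 24.1 in the orbital ones. The part of these cell types and of RNA quality in the Myh3 and Myh8 results was not tested.

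The other myosin heavy chains did not share one direction. Of 15 tested probe sets for 11 genes, 4 were higher in the orbital layer (Myh3 and Myh8 themselves, Myh6 and Myh10) and 2 lower (Myh7 and Myh11), against 7.41% called over all probe sets tested. The share of these genes called, the 2 members included, was 54.5%, beside 7.68% of all genes tested. By gene the median log2 difference of the 11 was 0.25, beside 0.02 over all 7163 genes tested. Between Myh3 and Myh8 on the chromosome, the adult fast genes did not pass: Myh2 differed by 0.25 ± 0.27 (SE), Myh1 by -0.09 ± 0.27 and Myh4 by -1.12 ± 0.32 (limma, adjusted p = 0.657, 0.886 and 0.0515). Myh2 was negative with global captures 2 and 3 alone (-0.14) and without the captures of most photoreceptor signal (-0.15), and the sign of Myh1 turned in 4 of 25 alternatives. Myh4, the chain of the fastest limb fibres, had 2177.5, 5151.3, 2662 and 7237.9 in orbital captures 1 to 4 and 6488.1 to 11880.9 in the global ones. It passed in 10 of 25 alternatives, among them those without orbital capture 4 (-1.43, limma adjusted p = 0.00788) or global capture 2 (0.0474) and that with the title prefix as a replicate block (0.0475). Beyond Myh8, Myh13 differed by 0.24 ± 0.17 (adjusted p = 0.468).

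Outside this row of genes, the cardiac alpha chain Myh6 rose with the developmental pair, from 56.9 to 128.5 in the global to 206.8 to 1546.6 in the orbital captures. Its log2 difference was 2.61 ± 0.49 (SE, limma adjusted p = 0.00532). It passed in 23 of 25 alternatives, but not with robust eBayes or within R2. Another Myh6 probe set, too dim to be tested, went the other way, with means of 9.1 in the global and 2.8 in the orbital captures. The slow chain Myh7 fell, from 8627.9 to 11691.1 in the global to 2300.7 to 4646.8 in the orbital captures (-1.84 ± 0.21, adjusted p = 0.000158). Non-muscle Myh10 differed by 0.58 ± 0.13 (adjusted p = 0.0176) and missed the threshold when global capture 3 (0.0523) or orbital capture 3 (0.0551) was left out. Smooth muscle Myh11 differed by -1.39 ± 0.23 (adjusted p = 0.00267) and non-muscle Myh9 by 0.29 ± 0.17 (adjusted p = 0.363). A further 3 probe sets are annotated to several genes, a myosin heavy chain among them, and were left out. Sarcomeric myosin genes are alike in sequence, so signal shared between them makes the separate levels uncertain.

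**Figure D3:**
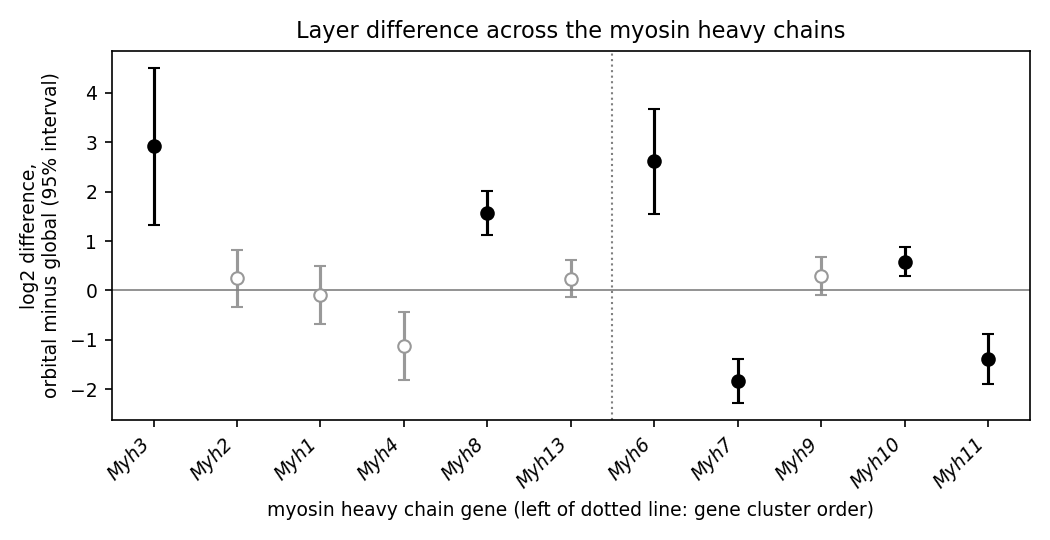
Log2 difference of intensity, orbital minus global, with its 95% interval for the brightest tested probe set of each of 11 myosin heavy chain genes (n = 4 captures per layer); the 6 genes left of the dotted line stand in their order on chromosome 10, and filled points have a limma adjusted p under 0.05. Myh3 (2.92) and Myh8 (1.56) are the filled points of that row, and the 3 genes between them lie from -1.12 to 0.25.

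Most partners of myosin in the thick filament did not follow Myh3 and Myh8. Among 16 tested, 1 rose and 8 fell, 7 not passing; the median log2 difference was -0.71 beside 0.02 over all genes and 7.68% of genes called. The 1 that rose was Myom1, an M band protein that links thick filaments (0.81 ± 0.14 (SE), limma adjusted p = 0.00381). Among those that fell were its relative Myom2 (-4.59), the myosin binding proteins Mybpc2 (-3.54), Mybphl (-3.14) and Mybph (-1.42), the light chain Myl3 (-2.004) and the light chain kinase Mylk2 (-1.47). The embryonic and atrial light chain Myl4 was 74.2, 219.1, 125.6 and 189.6 in orbital captures 1 to 4 and 17.2, 107.2, 39.9 and 130.9 in global captures 1 to 4. These ranges overlapped, and its difference of 1.31 ± 0.53 did not pass (adjusted p = 0.169). Unc45b, the chaperone that folds myosin, differed by -0.09 ± 0.14 (adjusted p = 0.761).

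Of the other genes of embryonic or denervated muscle, Tnnt2 and Tubb6 moved with the developmental chains. Among 18 tested these 2 rose (11.1%, beside 4.09% of all genes higher), 0 fell and 16 missed the threshold; the median was 0.41. At an unadjusted p under 0.05, 10 were higher and 0 lower (limma), Tnnt2 and Tubb6 among them. The share of all genes higher at that threshold is not given here, so this count cannot be judged against a background. Tnnt2 was 895.8, 650.3, 597.6 and 989.9 in orbital captures 1 to 4 and 1.4, 69.6, 5 and 23.5 in global captures 1 to 4 (5.93 ± 0.75 (SE), adjusted p = 0.000403). Like Myh3 it was highest in global capture 2 among the global captures, but its lowest value was in global capture 1, not 4. Tubb6, a tubulin, was 88.8 to 134 in the orbital and 4.7 to 28.2 in the global captures (2.81 ± 0.44, adjusted p = 0.00187). The global means of Tnnt2 and Tubb6 (24.9 and 17.5) lay under the filter intensity of 39.4. Both were therefore tested only through their orbital signal, which limits what the share of 11.1% and the count of 10 mean. With no filter both were also called (limma, adjusted p = 0.00131 and 0.00568). Without global capture 4 the count was 5, with Chrna1 and Chrnd, subunits of the muscle acetylcholine receptor, and the intermediate filament gene Nes added (adjusted p = 0.0220, 0.0379 and 0.0179). With all captures these 3 differed by 1.05, 0.94 and 0.92 (adjusted p = 0.0566, 0.0855 and 0.119). The count was 1 without orbital capture 2, 3 or 4, where Tubb6 was too dim to be tested. Igf2, a fetal growth factor, differed by 0.01 ± 0.20, and H19, the untranslated RNA beside it, by -0.26 ± 0.21.

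Among 12 tested genes that control myogenesis or mark satellite cells, 2 rose (16.7%, beside 4.09% of all genes higher) and 0 fell (1 lower at an unadjusted p under 0.05, limma), with a median of 0.03. Boc, a cell surface receptor that promotes myogenic differentiation, was 1023.9, 657.4, 911.5 and 882.5 in orbital captures 1 to 4 and 94.2, 182.2, 167.7 and 96 in global captures 1 to 4 (2.72 ± 0.22 (SE), adjusted p = 2.13e-05). Its layers did not overlap, and it was highest in the global captures 2 and 3 that also held the most Myh3 and Myh8. Myf6, the myogenic factor of mature fibres, was 490.8 to 722.7 in the orbital and 344 to 437.1 in the global captures (0.64 ± 0.15, adjusted p = 0.0175). Myf6 did not pass when orbital capture 1, orbital capture 2 or global capture 3 was left out (0.0522 to 0.0580). Myog and Myod1, which drive the differentiation of myoblasts, differed by 0.03 ± 0.17 and -0.61 ± 0.27 (adjusted p = 0.944 and 0.209), and Mef2c, their cofactor, by 0.04 ± 0.13.

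The genes whose profile over the 8 captures lay nearest to each member were taken by the root mean square (RMS) difference of log2 values, after subtracting each gene's own mean. Nearest to Myh3 were Sln, a small inhibitor of the calcium pump (RMS 0.96), Bdh1, a mitochondrial enzyme of ketone body use (0.96), Cbr3, a carbonyl reductase (1.03), Cryl1, a crystallin-related enzyme (1.03), and Erf, a transcriptional repressor (1.05). Sln was 38.9 in global capture 4 and 112 to 451.5 in the other global captures, against 1534.8 to 4069.3 in the orbital ones. Bdh1 was likewise lowest in global capture 4 (5) and highest in global capture 2 (41.2) among the global captures, with 103.5 to 200 in the orbital layer. Both rose in the orbital layer (4.08 ± 0.54 and 3.19 ± 0.49 (SE), limma adjusted p = 0.000521 and 0.00158). Cryl1 differed by 1.98 (adjusted p = 0.0174, lost without orbital capture 3 at 0.0668), Cbr3 by 1.70 (0.0361, lost without each capture but global capture 2 or orbital capture 4) and Erf by 1.203 (0.333). In global capture 4 all 5 neighbours were under the highest bacterial control (41.5), with Cbr3 at 11.4, Cryl1 at 14.1 and Erf at 4.6. Their low values there are at background level, while Myh3 (213.5) was above that control. Global means of Bdh1, Cbr3 and Cryl1 (20.0, 36.3 and 30.5) were under the filter intensity of 39.4, so these genes were tested only through their orbital signal.

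Myh8 had far closer neighbours. Nearest were Stn1, a telomere protein (RMS 0.25), Dipk2a (0.26), Stk39, a kinase that regulates ion cotransporters (0.27), Grb14, an adaptor of the insulin receptor (0.28), and Tpd52l1 (0.28). Stk39 was 889.8 to 1089.2 in the orbital and 281.5 to 360.5 in the global captures, with no overlap (1.60 ± 0.13 (SE), limma adjusted p = 2.13e-05). Grb14 was 278.7 to 410.5 and 105.2 to 140.5 (1.42 ± 0.16, adjusted p = 0.000215). Stn1 differed by 1.51, Tpd52l1 by 1.43 and Dipk2a by 1.28, each past the threshold. Myh8 was the 18th nearest of 7162 genes to Myh3, at an RMS of 1.31, while from Myh8 the profile of Myh3 was at rank 7005. The measure counts the size of a difference as well as its shape, and these neighbours were picked for likeness from all genes. That choice favours genes with a layer difference like that of the member. The p-values given for the neighbours of Myh3 and of Myh8 are therefore no independent evidence of a layer difference.

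**Figure D4:**
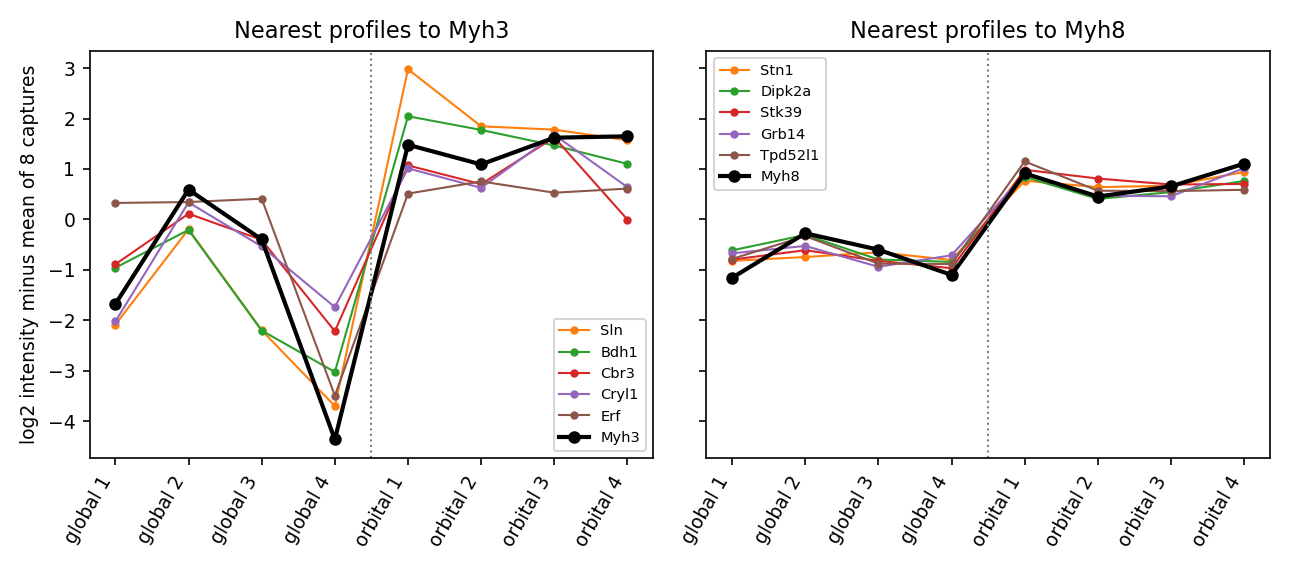
Log2 intensity minus each gene's mean over the 8 captures for Myh3 (left, black) and Myh8 (right, black) with their 5 nearest genes each; lines join the points of a gene and imply no order among captures. Myh3, Sln, Bdh1, Cbr3 and Erf are lowest in global capture 4, where the genes beside Myh3 are under the highest bacterial control. The genes beside Myh8 stay within a narrow band in each layer.

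**Figure D5:**
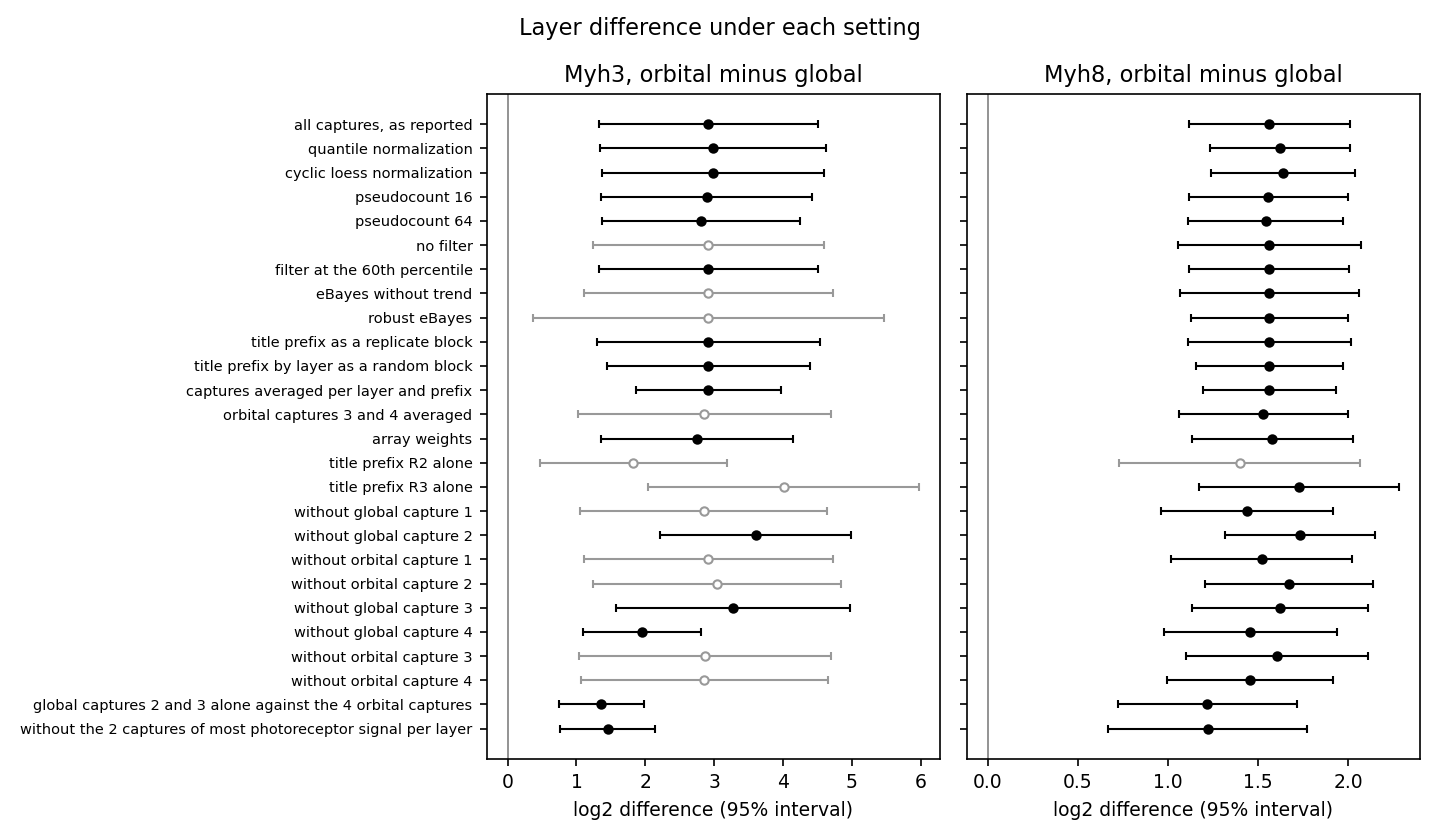
Log2 difference, orbital minus global, of Myh3 and Myh8 with its 95% interval for all captures and under each of 25 alternatives; filled points have a limma adjusted p under 0.05. Myh3 passes in 14 of 25 with values from 1.36 to 4.01, and Myh8 in 24 of 25 with values from 1.22 to 1.73.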

How the data were processed

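Values were the deposited intensity of each probe set, on a linear scale, from Affymetrix rat RAE230A arrays after T7-based amplification, per the labels. How probes were summarised is not given in the sources used here. The authors' scaling was found from the values: their 2% trimmed means lay within 0.00389% of each other, so no further normalization was applied. Controls (57) were left out, and 9520 of 15866 probe sets with a mean log2 value at or above the 40th percentile (intensity 39.4) were tested with lmFit and eBayes with trend (limma 3.58.1, R 4.3.3) on log2(intensity + 1), layer being the only term, with Benjamini-Hochberg adjustment over all of them. Log2 differences are on this scale, while folds between captures or over a control are ratios of the intensities themselves. Captures are numbered in accession order within a layer.

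Gene symbols are those of the platform annotation and may be outdated (12783 probe sets with 1 symbol, 312 with several, 2771 with none; 12748 matched a current table and 0 symbols changed), and taken by their brightest tested probe set. The members and lists were chosen with earlier results of these data known. Named were all myosin heavy chains, up to 6 called genes per direction in 3 lists, and the 5 nearest profiles; Myl4, Unc45b, Chrna1, Chrnd, Nes, Igf2, H19, Myog, Myod1, Mef2c, Sag, Ttr and Rcvrn were added after their values were seen. The procedure was tested on simulated data. The windows before gene starts are RefSeq's (GRCr8), and both members matched.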

Additional observations from a re-analysis of the deposited data

Results flagged for a closer look

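In 7 of 64 groups of 4 captures of the genes named by rule, 1 capture stood apart from the other 3 of its layer (Dixon's test at the 95% level), where chance gives about 1 in 20. None was a group of Myh3 or Myh8. In the orbital layer Myh7 was 4646.8 in capture 3 against 2300.7 to 2683.1, Myom2 630.9 in capture 3 against 71.6 to 81.2, Sln 4069.3 in capture 1 against 1534.8 to 1858.9, and Tpd52l1 703.3 in capture 1 against 467.5 to 476.2. In the global layer Erf was 4.6 in capture 4 against 77.9 to 82.6, Mybphl 1181.8 in capture 3 against 1023.5 to 1042.8, and Tpd52l1 251.6 in capture 2 against 171.3 to 183.8.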

How the results depend on the processing

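Myh3 and Myh8 stayed higher in the orbital layer under all 25 alternatives. Myh3 passed limma's adjusted 0.05 in 14 of them (adjusted p 0.00503 to 0.228) and Myh8 in 24, the exception being prefix R2 alone (1.40). Myh3 did not pass with no filter, eBayes without trend or robust eBayes (2.92 in each), with orbital captures 3 and 4 averaged (2.86), or within prefix R2 (1.83) or R3 (4.01), and ranged from 1.95 to 3.602 with 1 capture left out. The cause was not tested, but fits within a prefix hold 2 captures per layer. Myh1 turned positive within R3 (0.0992) and, with 1 capture left out, ranged from -0.31 to 0.13 (0.0559 without global capture 2, 0.0720 without orbital capture 1). Myh2 turned to -0.14 with global captures 2 and 3 alone and to -0.15 without the captures of most photoreceptor signal.

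Of all probe sets, 705 were called, 461 to 725 with 1 capture left out, 106 within R2, 170 within R3, 342 with global captures 2 and 3 alone and 359 without the captures of most photoreceptor signal. In the same order of these 6 settings, myosin heavy chain probe sets called numbered 6, 4 to 7, 1, 3, 6 and 7, and thick filament partners 9, 9 to 10, 5, 4, 5 and 6. Developmental genes numbered 2, 1 to 5 with 1 capture left out, 6 with captures averaged per prefix, and 1 within R2, within R3, after quantile normalization or without the captures of most photoreceptor signal. Myogenic genes numbered 2, 1 to 2 with 1 capture left out, and 1 within R2, within R3, with averaging, with global captures 2 and 3 alone or without the captures of most photoreceptor signal. The title prefix as a replicate block gave 2.92 for Myh3 (adjusted p = 0.0319) and changed no call of a gene named here but that of Myh4. No scaling moved the median of all probe sets by over 0.1. Signal over background limits dim genes such as Tnnt2 in the global layer.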
